A study of Ovis aries with 40 samples.

Results

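The genes described here encode actin and actin-binding proteins of the non-muscle cytoskeleton: the cytoplasmic actins ACTB and ACTG1, the monomer-binding proteins TMSB10, PFN1 and CAP1, the filament-severing protein CFL1, the filament-binding protein TAGLN2 and the myosin light chain MYL6. They were chosen by gene symbol, and they were proposed with results of these arrays known, among them the difference between the muscling groups. All 8 of the 8 genes were measured, on 9 probe sets, and all 8 passed the detection limit, out of 9155 genes measured and 6360 detected in the series. ACTG1 had a pair of probe sets and every other gene had 1.

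The arrays were hybridised with RNA of longissimus dorsi (LD) muscle, the long back muscle, from 40 Poll Dorset sheep aged 78 weeks, with a separate array for each. The sires were extreme for the estimated breeding value (EBV) of eye muscle depth, a measure of muscling made across this muscle. High muscling was represented by 19 progeny, of which sire 11 had 8, sire 2 had 7 and sire 7 had 4. Low muscling was represented by 21, of which sires 16 and 5 had 8 each and sire 17 had 5. The groups stand for 3 sires each, no sire had progeny in both, and no treatment is named for any animal. The labels give neither dams, slaughter days nor array batches, so that a sire family cannot be told apart from anything its progeny shared. The values are MAS5 signals, intensities on a linear scale that the authors computed from a bovine array hybridised with sheep RNA, and differences are given on the log2 scale.

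Actin monomers assemble into filaments that drive movement, shape and transport in nearly every cell. Thymosin and profilin hold the pool of monomers, cofilin and cyclase-associated protein take filaments apart, and the Arp2/3 complex starts branches. In skeletal muscle fibres most actin is the alpha form (ACTA1) of the sarcomere, while the beta and gamma forms lie mainly outside it and are abundant in fibroblasts, endothelium, leukocytes and muscle precursors. A sample of whole muscle holds RNA of all of these, and fewer cells of a type cannot be told apart from less RNA per cell. The tissue label was met by its defining markers, since CKM, the muscle creatine kinase, reached 29156 ± 2415 (mean signal ± SD, n = 40) and all 8 measured fibre markers were detected.

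The signals of 6 of the 8 genes followed sire families and not only muscling groups. Differences between sires may have been in view when the genes were proposed, so that this count is a description. In the F test given below, 22% of all detected genes differed between sires of the same muscling group. MYL6, TMSB10, TAGLN2, CAP1, ACTG1 and PFN1 were highest in the progeny of sires 16 and 5, ACTG1 only on the brighter of its probe sets. The progeny of sire 17, also of the low muscling group, had mean signals between those of the high muscling families and those of sires 16 and 5, or within the former, and were lower than the progeny of sires 16 and 5 by 0.36 to 0.56 on the log2 scale. ACTB and CFL1 did not share this pattern. The genes are taken below by what their proteins do. Counts of animals above or within the range of another group are given without the same count over all detected genes, which was not made.

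**Figure D1:**
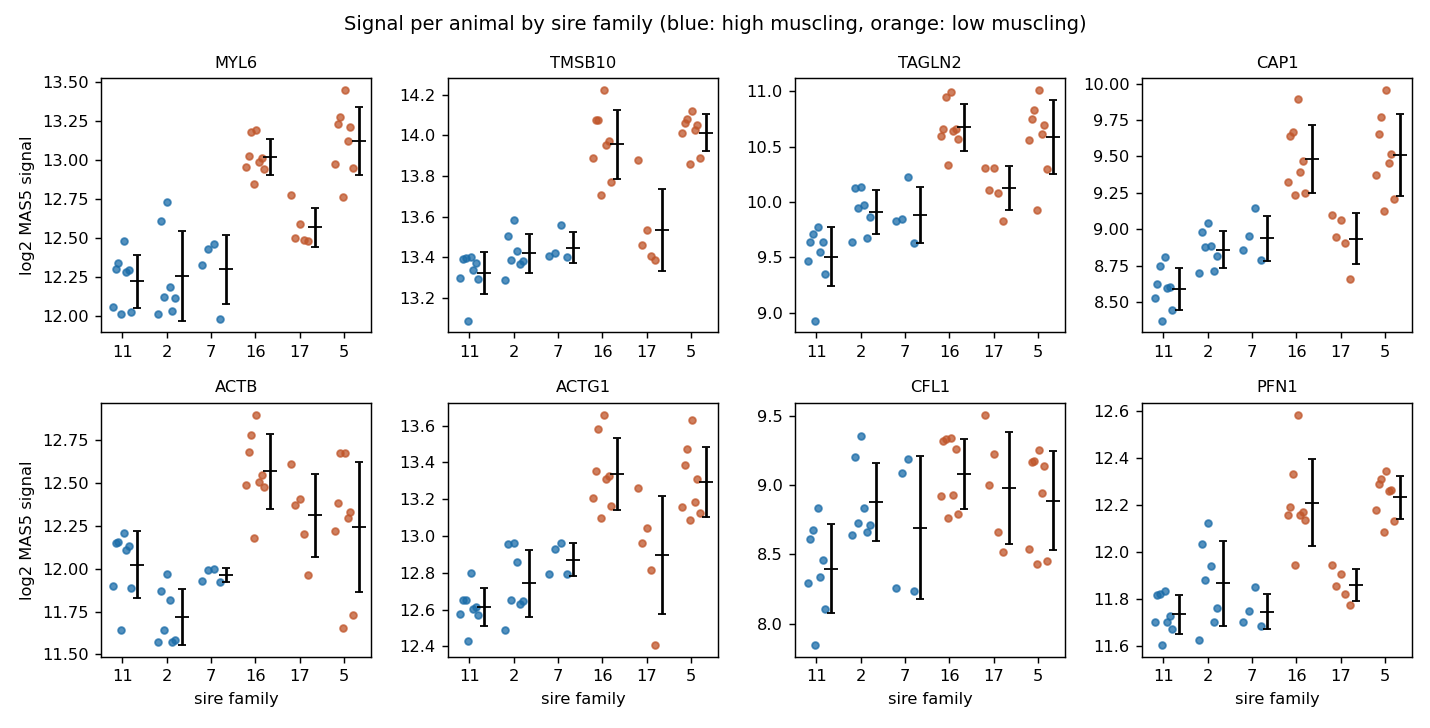
Signal of each of the 8 genes in the 40 animals, on a log2 axis that starts at a different value in each panel, with sire families on the x axis (11, 2 and 7 high muscling, 16, 17 and 5 low muscling). Points are animals, placed sideways without order, and the bars beside them are the family mean ± SD. For MYL6, TMSB10, TAGLN2, CAP1, ACTG1 and PFN1 the families of sires 16 and 5 stand above the other 4, while CFL1 overlaps between all 6 families.

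TMSB10 encodes thymosin beta 10, a small peptide that binds actin monomers. Its signal ran from 8702 to 12263 with a median of 10757 in the high muscling group, and from 10721 to 19139.5 with a median of 15837 in the low muscling group. The 4 progeny of sire 7 had 10798, 10844, 10975 and 12071.5, and the 5 progeny of sire 17 had 10721, 10837, 11276, 11866 and 15081. Of the 21 low muscling animals 17 were above every high muscling animal, and 4 of the 5 progeny of sire 17 lay within the range of the high muscling group. The family means were 10263 ± 702 for sire 11, 10973 ± 749 for sire 2 and 11172 ± 604 for sire 7, against 16004 ± 1887 for sire 16, 11956 ± 1804 for sire 17 and 16565 ± 1034 for sire 5 (± SD over the progeny). The differences between families made up 0.851 of the variance of its log2 signal, as a share, beside a median of 0.259 over all detected genes. This share includes the difference between the muscling groups that was known when the genes were chosen.

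PFN1 encodes profilin 1, which binds actin monomers and passes them to growing filament ends. Its signal ran from 3113 to 4457 with a median of 3439 in the high muscling group, and from 3503 to 6143 with a median of 4574.5 in the low muscling group. In the progeny of sire 7 (n = 4) it was 3290.1, 3335, 3439 and 3700.1, and the 5 progeny of sire 17 had 3503, 3625, 3702, 3838 and 3945. All 5 progeny of sire 17 lay within the range of the high muscling group, and 15 of the 16 progeny of sires 16 and 5 were above all of them. The family means were 3414 ± 193, 3763 ± 470 and 3441 ± 184 for sires 11, 2 and 7, and 4771 ± 644, 3723 ± 174 and 4824 ± 301 for sires 16, 17 and 5.

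CAP1 encodes cyclase-associated protein 1, which helps to free monomers from old filament ends. Its signal ran from 332 to 567 with a median of 443 in the high muscling group, and from 403.5 to 994 with a median of 664 in the low muscling group. The 4 progeny of sire 7 had 443, 465, 496 and 567, and the 5 progeny of sire 17 had 403.5, 479, 495, 535 and 548. All 16 progeny of sires 16 and 5, families that overlapped each other, were above every progeny of sire 17. The gap was narrow, from 548 in sire 17 to 557.7 in sire 5. The 5 progeny of sire 17 lay within the range of the high muscling group. The family means were 387 ± 38.7, 466.1 ± 41.3 and 492.6 ± 53.9 for sires 11, 2 and 7, and 725 ± 122, 492 ± 57.1 and 740.4 ± 146 for sires 16, 17 and 5.

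MYL6 encodes the essential light chain of non-muscle and smooth muscle myosin II, the motor that pulls on cytoplasmic actin filaments. Its signal ran from 4046 to 6798 with a median of 4978 in the high muscling group, and from 5731 to 11176.5 with a median of 8062 in the low muscling group. Progeny of sire 7 had 4046, 5143, 5514 and 5643, and the 5 progeny of sire 17 had 5731, 5759, 5796, 6179.8 and 7012.5. The groups overlapped only through progeny of sires 2 and 17: 17 of the 19 high muscling animals were below every low muscling animal, and all 16 progeny of sires 16 and 5 were above every high muscling animal. The family means were 4817 ± 563, 4994 ± 1069 and 5087 ± 725 for sires 11, 2 and 7, and 8325 ± 686, 6096 ± 544 and 8995 ± 1333 for sires 16, 17 and 5.

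TAGLN2 encodes transgelin 2, which binds and bundles actin filaments outside smooth muscle. Its signal ran from 487 to 1201.5 with a median of 837 in the high muscling group, and from 908 to 2065.5 with a median of 1549 in the low muscling group. In the progeny of sire 7 (n = 4) it was 790.2, 908, 920.0 and 1201.5, and the 5 progeny of sire 17 had 908, 1086, 1102, 1263 and 1268. Of the 5 progeny of sire 17, 3 lay within the range of the high muscling group, and 14 of the 16 progeny of sires 16 and 5 were above all 5. The family means were 738 ± 123, 969 ± 131 and 955 ± 175 for sires 11, 2 and 7, and 1650.2 ± 247 for sire 16, 1125 ± 149 for sire 17 and 1573 ± 337 for sire 5. The lowest family was that of sire 11, as it was for 7 of the 8 genes.

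ACTB and ACTG1 encode beta and gamma actin, which differ in only a few residues at the start of the protein. The ACTG1 signal, on the brighter of its probe sets, ran from 5506 to 7984 with a median of 6446 in the high muscling group, and from 5426 to 12942 with a median of 9443 in the low muscling group. The 4 progeny of sire 7 had 7087, 7102, 7814 and 7980.1, and the 5 progeny of sire 17 had 5426, 7193, 7984, 8445 and 9813. The lowest of all 21 low muscling animals was thus a progeny of sire 17, below every high muscling animal, while all 16 progeny of sires 16 and 5 were above the high muscling range. The family means were 6275 ± 451, 6899 ± 878 and 7496 ± 468 for sires 11, 2 and 7, and 10432 ± 1474, 7772 ± 1620.4 and 10121 ± 1390.04 for sires 16, 17 and 5.

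The ACTB signal ran from 3042 to 4734 with a median of 3888 in the high muscling group, and from 3227 to 7649 with a median of 5425.5 in the low muscling group. Progeny of sire 7 had 3888, 3895, 4075 and 4099.7, and the 5 progeny of sire 17 had 3992, 4721, 5306.5, 5425.5 and 6272. Unlike the 6 genes above, ACTB had similar means in sire 17 (5143 ± 849) and sire 5 (5002 ± 1234), and was highest in sire 16 (6141 ± 924). Within the high muscling group it was lowest in sire 2 (3390.1 ± 397), with 4196 ± 535 in sire 11 and 3989 ± 114 in sire 7. The log2 ratio of the ACTB signal over the ACTG1 signal in the same animal, whose differences between families can be read but not its size, was -0.58 ± 0.24 in sire 17 and -0.77 ± 0.22 in sire 16 but -1.05 ± 0.28 in sire 5 (± SD over the progeny). This ratio was -0.59 ± 0.19 in sire 11, -1.02 ± 0.15 in sire 2 and -0.91 ± 0.05 in sire 7. Its differences between families were not tested, and it uses only the brighter ACTG1 probe set. The log2 signals of ACTB and ACTG1 on these probe sets had a Pearson r of 0.702 over all animals. With family means removed r was 0.565. The coding sequences of the actins are nearly identical, and how far each probe set also takes up RNA of other actins was not tested.

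CFL1 encodes cofilin 1, the form of cofilin found in most cells, which severs actin filaments. Its signal ran from 230.0 to 653 with a median of 406 in the high muscling group, and from 346 to 728 with a median of 511 in the low muscling group. In the progeny of sire 7 (n = 4) it was 302, 306, 544 and 584, and the 5 progeny of sire 17 had 366, 406, 511, 597 and 728. Only 1 of the 21 low muscling animals was above every high muscling animal, and the highest single value was of a progeny of sire 17. Its family means lay between 344 ± 74.0 for sire 11 and 549 ± 95.3 for sire 16, and the share of its variance between families was 0.358, the least of the 8 genes.

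The difference between high and low muscling is given as a description, since the genes had been chosen with it in view. With sire as a random block, all 8 genes had lower signals in the high muscling group. The log2 differences (± SE) were -0.74 ± 0.13 for TAGLN2, -0.67 ± 0.10 for MYL6 and -0.56 ± 0.11 for CAP1. They were -0.48 ± 0.12 for ACTB, -0.47 ± 0.10 for ACTG1, -0.47 ± 0.08 for TMSB10, -0.34 ± 0.15 for CFL1 and -0.33 ± 0.08 for PFN1. These sizes stand for signals 1.26 times as high in the low muscling group for PFN1 to 1.67 times as high for TAGLN2. In the limma fit across all genes, 7 of the 8 (not CFL1) were past an adjusted p of 0.05 in the lower direction, where 5.5% of the 6360 detected genes were called lower and 2.28% higher. This count is no test of the 8 genes, since they were chosen with the difference known.

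The count, more than the sizes, depended on the families of sires 16 and 5, as did the count over all genes. Over all detected genes 495 were called in the main fit, 29 without sire 16 and 23 without sire 5. The number was 290 without sire 2 and 272 without sire 7, but 685 without sire 11 and 1221 without sire 17. Without the progeny of sire 16 only MYL6 and TMSB10 of the 8 were past the threshold, while TAGLN2 still differed by -0.63, CAP1 by -0.47 and ACTG1 by -0.39. Without the progeny of sire 5 only ACTB, MYL6 and TAGLN2 were past it, with -0.46 for CAP1 and -0.41 for ACTG1. ACTB was not called without the progeny of sire 2 (-0.38). The CFL1 difference was -0.18 without the progeny of sire 11 and -0.10 with the ratio of a spiked control as a covariate. With the 6 sire means as samples, 3 against 3, none of the 8 was, and neither was any other gene in limma (0 calls). The direction was the same for all 8 genes under each scaling tried. Of the calls over all genes 70.7% were lower, and 85.8% with each array centred on its median.

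The sires within a muscling group were then compared, which asks whether half-sib families differed when the muscling class was the same. These contrasts use the same 40 arrays, do not use the difference between the groups, and may themselves have been in view when the genes were proposed. In a moderated F test over the 4 contrasts, 22% of detected genes (1402 of 6360) were called at an adjusted p under 0.05, and 6 of the 8 genes. The adjusted p was 6.23e-04 for TMSB10, 6.59e-04 for CAP1, 0.00564 for TAGLN2, 0.00599 for PFN1, 0.00857 for MYL6 and 0.0135 for ACTG1. ACTB (adjusted p = 0.0762) and CFL1 (0.200) did not pass. With quantile normalization MYL6 and ACTG1 were no longer called, and with the ratio of a spiked control as a covariate TAGLN2 and ACTG1 were not.

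The contrast of sire 17 with sires 16 and 5 held most of these calls. The progeny of sire 17 had lower signals of CAP1 by a log2 difference of -0.56 ± 0.11 (SE, adjusted p = 3.68e-04), of TAGLN2 by -0.51 ± 0.13 (0.00748) and of MYL6 by -0.50 ± 0.11 (0.00114). TMSB10 differed by -0.45 ± 0.08 (adjusted p = 1.09e-04), ACTG1 by -0.42 ± 0.10 (0.00438) and PFN1 by -0.36 ± 0.08 (0.0012). Thus 6 of the 8 genes were lower, where 9.7% of all detected genes were called lower and 4.37% higher. For ACTB the difference was -0.10 ± 0.13 (adjusted p = 0.683, 95% interval -0.35 to 0.15), and for CFL1 the 95% interval was -0.34 to 0.34 (adjusted p = 0.995). The ACTG1 call was lost without progeny 71 of sire 17, whose ACTG1 signal was the lowest of the family (-0.30, adjusted p = 0.056), and with quantile normalization (-0.25, 0.0949). The TAGLN2 call was lost with the control ratio as a covariate (-0.41, adjusted p = 0.0671).

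**Figure D2:**
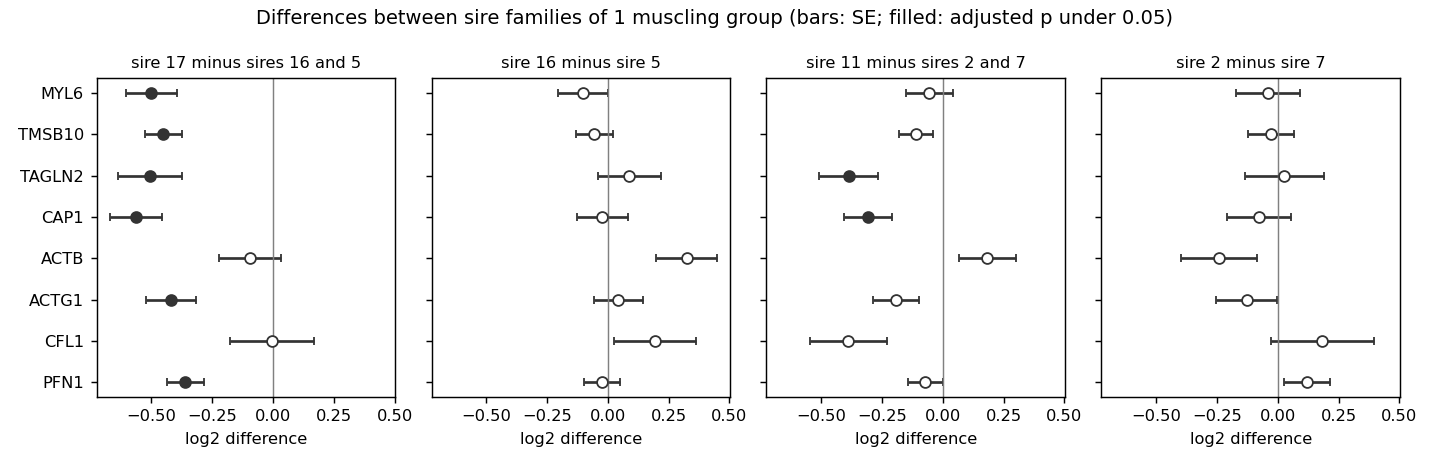
Log2 difference of each of the 8 genes (rows) in the 4 contrasts between sire families of 1 muscling group (panels), with bars of 1 SE and filled points for an adjusted p under 0.05. The 6 filled points of sire 17 minus sires 16 and 5 lie between -0.56 and -0.36, and sire 11 minus sires 2 and 7 has filled points for TAGLN2 and CAP1.

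None of the 8 genes was called between sires 16 and 5. Over all genes 2 were called in this contrast (0.0314%), with 414 at an unadjusted p under 0.05. Of the 6 genes that were lower in sire 17, the 95% interval of the difference reached down to -0.30 for MYL6 and up to 0.34 for TAGLN2, and was narrower than these bounds for the other 4. The widest difference was that of ACTB, higher in sire 16 by 0.32 ± 0.12 (adjusted p = 0.630, 95% interval 0.08 to 0.57).

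Within the high muscling group the progeny of sire 11 had lower signals than those of sires 2 and 7 for a pair of the genes. TAGLN2 differed by -0.39 ± 0.12 (adjusted p = 0.0216) and CAP1 by -0.31 ± 0.10 (0.025), where 11.8% of detected genes were called lower and 7.75% higher. CFL1 had a difference of -0.39 ± 0.16 that did not pass (adjusted p = 0.0828), and ACTB was the one gene with a positive difference, 0.18 ± 0.12 (0.285). Both calls were lost with each array centred on its median (-0.32 with an adjusted p of 0.0653 for TAGLN2, -0.24 with 0.0856 for CAP1) and with the control ratio as a covariate (-0.32 with 0.104 and -0.27 with 0.089). TAGLN2 was also lost without progeny 69 of sire 7 (0.0627) and CAP1 without progeny 18 of sire 7 (0.0641). Of all calls in this contrast 60.4% were lower, and 42.99% with median centring. Between sires 2 and 7 no gene was called in limma (0%), with 355 of 6360 at an unadjusted p under 0.05.

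The probe sets of ACTG1 gave different pictures. The dimmer one, the only second probe set among the 8 genes, had a mean signal of 1151 ± 315 (SD, n = 19) in the high and 1202 ± 307 (n = 21) in the low muscling group, and its highest family was that of sire 17, with 1397 ± 439. Over the 40 animals the log2 signals of the pair had a Pearson r of -0.0423 (Spearman's coefficient -0.0660), and an r of 0.0189 with family means removed, given as descriptions. With the mean of both probe sets the difference of sire 17 from sires 16 and 5 was -0.08 (adjusted p = 0.726), and that of high from low muscling was -0.29 in place of -0.47 and not past the threshold. The ACTG1 results above are therefore those of 1 probe set, and which part of the transcript each one reads was not given in the sources used here.

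**Figure D3:**
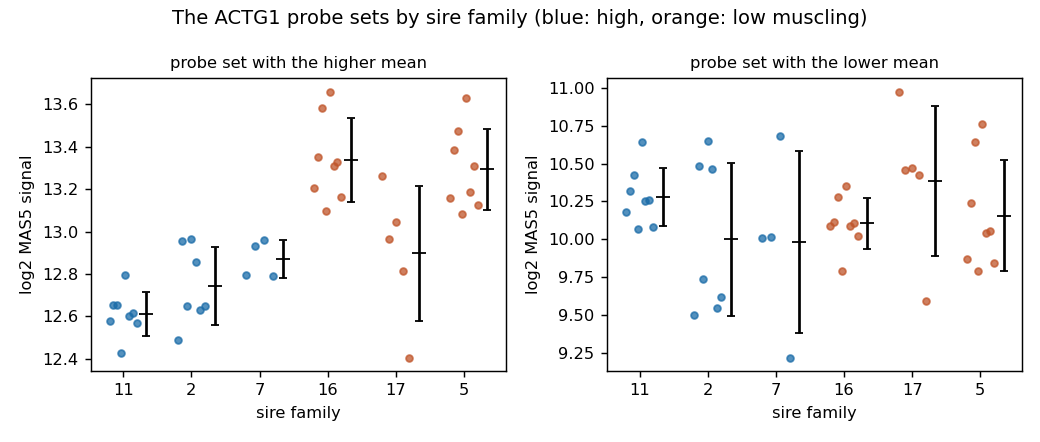
Log2 signal of the brighter (left) and the dimmer (right) ACTG1 probe set in each animal by sire family, with bars of the family mean ± SD and different axis ranges. On the left the families of sires 16 and 5 are highest, and on the right that of sire 17 has the highest mean.

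The 8 genes varied together over the animals, mostly through the families. All 8 share the difference between the muscling groups that was known when they were chosen, and this difference is part of the values over 40 animals. For their 28 pairs, Pearson r had a median of 0.754 across the 40 animals, against 0.00863 over all pairs of detected genes, and it was 0.292 once the mean of each family was removed. It was 0.647 within the low muscling group, where sire 17 stands apart, and 0.152 within the high muscling group. The pair closest in all animals was TAGLN2 with CAP1, with an r of 0.894, and 0.565 with family means removed. Within families the closest was TAGLN2 with ACTB, with an r of 0.674. MYL6, with one of the widest family differences, had an r of no more than 0.301 with any other of the genes once family means were removed, and CFL1 had a median r of 0.437 with the others. The points share families and arrays, so that no p is given.

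**Figure D4:**
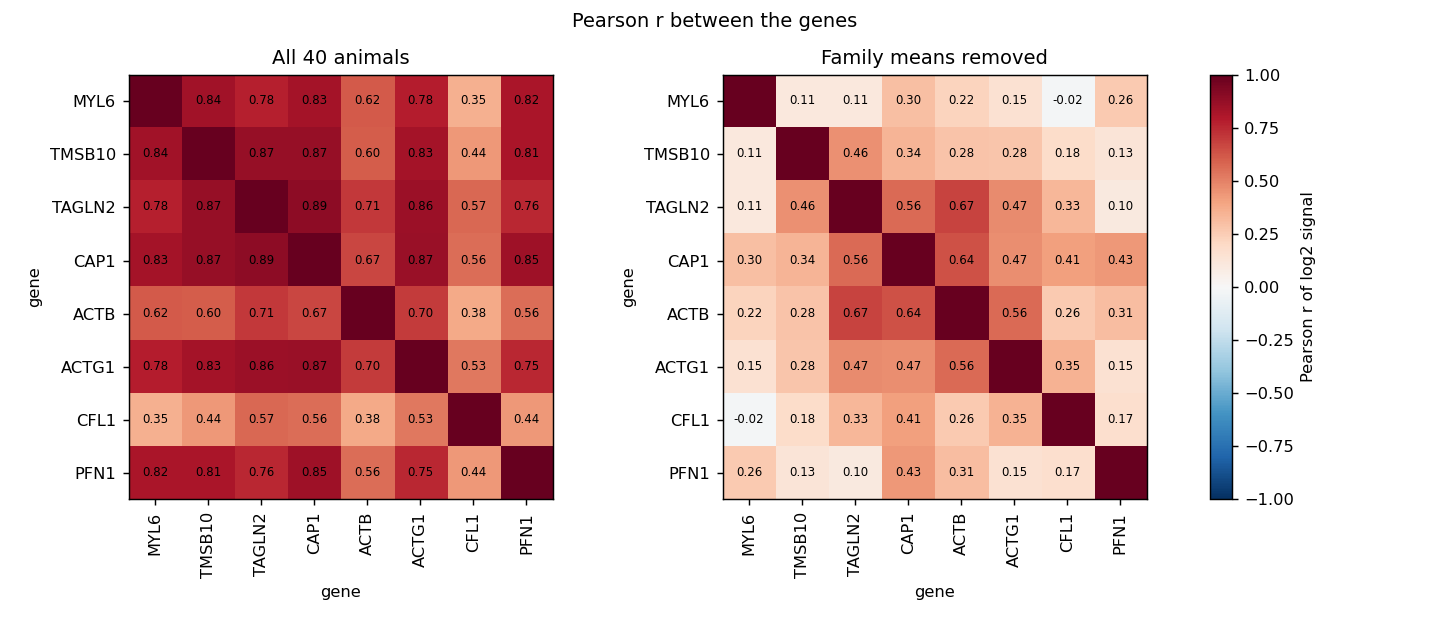
Pearson r of log2 signal between the 8 genes over the 40 animals (left) and after the mean of each sire family was removed (right), on a colour scale from -1 to 1. On the left the median of the 28 pairs is 0.754 and CFL1 has the lowest values, and on the right the median is 0.292.

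The genes with the most similar signals are given for each of the 8, as a description. Over the 40 animals the gene most like TAGLN2 was TIMP1, an inhibitor of matrix proteases (r = 0.903), and the one most like MYL6 was S100A11, a calcium-binding protein (0.877). For ACTG1 it was EIF4A1, a helicase of translation initiation (0.881), followed by SERPINH1, the collagen chaperone (0.870). TMSB10 and CAP1 were most like a probe set annotated as PRL (0.939 and 0.895), followed for both by PPIB, a prolyl isomerase of the endoplasmic reticulum (0.911 and 0.886). For PFN1 it was TIMM8B, of mitochondrial protein import (0.860), for ACTB SELENOK, a selenoprotein of the endoplasmic reticulum (0.843), and for CFL1 RAB11B, a small GTPase of vesicle recycling (0.713). The first principal component of the other detected genes held a share of 0.145 of their variance, and TAGLN2 (r = 0.920), ACTG1 (0.895), CAP1 (0.894) and TMSB10 (0.882) followed it more closely than CFL1 (0.627) and ACTB (0.609).

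Other genes of the actin cytoskeleton were taken from lists of 54 genes, of which 43 were measured and 42 detected. Of the 42, 7 were lower and 0 higher in sire 17 than in sires 16 and 5, beside 9.7% lower and 4.37% higher over all detected genes, and the median difference was -0.27 against -0.07. In sire 11 against sires 2 and 7, 15 were lower and 2 higher, beside 11.8% and 7.75% of all genes, with a median of -0.11 against -0.05. Between high and low muscling 11 were lower and 0 higher, beside 5.5% and 2.28% of all genes, with a median of -0.27 against -0.04. No test of the lists was made. The genes named below are the 2 of each list with the smallest p of the F test over sires. Wide differences between sires therefore go with how they were picked.

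GSN, gelsolin, which severs and caps filaments, had a wider contrast than any of the 8 genes. Its family means were 899 ± 127, 1507 ± 244 and 1586 ± 176 for sires 11, 2 and 7, and 2677 ± 349, 1107 ± 324 and 2525.5 ± 546 for sires 16, 17 and 5. It was lower in sire 17 than in sires 16 and 5 by -1.27 ± 0.14 (log2 ± SE, adjusted p = 2.37e-07), and lower in sire 11 than in sires 2 and 7 by -0.78 ± 0.13 (2.70e-05). CAPZB, a subunit of the capping protein, was lower in sire 11 (-0.64 ± 0.19, adjusted p = 0.0172), but did not pass the F test over sires (adjusted p = 0.0513).

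Of the 9 genes of the Arp2/3 complex, 5 were lower in high muscling and none higher, beside 5.5% and 2.28% of all detected genes. ARPC1B differed by -0.996 ± 0.17 between high and low muscling (adjusted p = 4.99e-04) and by -0.77 ± 0.16 between sire 17 and sires 16 and 5 (0.00121). ARPC5 differed by -0.82 ± 0.19 in the latter contrast (0.00267). The other 7 genes of the complex were not called in it, and the median over the 9 was -0.17.

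The paralogues of the cofilins did not follow 1 pattern. DSTN, destrin, which like cofilin takes filaments apart, was lower in sire 17 than in sires 16 and 5 by -0.66 ± 0.12 (adjusted p = 2.40e-04). CFL2, the cofilin of muscle fibres, was higher in sire 11 than in sires 2 and 7 by 0.33 ± 0.09 (adjusted p = 0.0124), with means of 8163 ± 838 in sire 11, 7023 ± 1061 in sire 2 and 6098 ± 945 in sire 7. CFL1, as given above, had a negative difference there that did not pass. The difference between the 2 cofilins was not tested.

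Among the linkers and motors, ACTN1, the non-muscle alpha-actinin, was lower in sire 17 (-0.66 ± 0.13, adjusted p = 3.48e-04) and in sire 11 (-0.53 ± 0.12, 0.00124). FLNA, filamin A, which crosslinks filaments, was lower in sire 11 (-0.71 ± 0.16, 0.00119), as were the myosins MYO1C (-0.95 ± 0.20, 7.33e-04) and MYO9B (-0.50 ± 0.16, 0.0266). MYO9B did not pass the F test over sires (adjusted p = 0.0965).

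**Figure D5:**
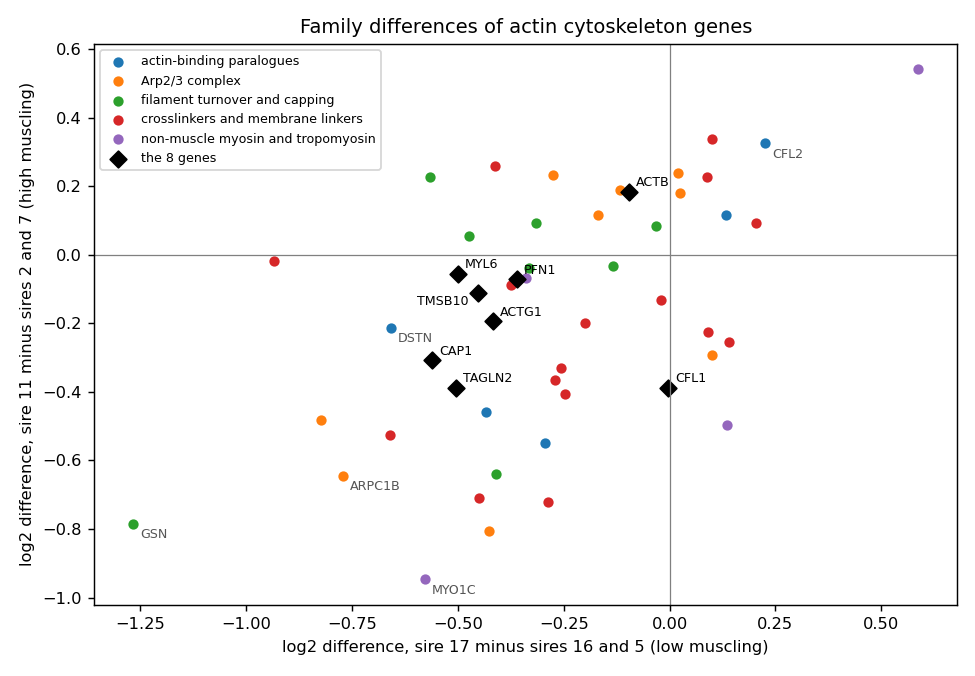
Log2 difference of sire 17 from sires 16 and 5 (x axis) and of sire 11 from sires 2 and 7 (y axis) for the 42 detected genes of the actin cytoskeleton lists (circles, coloured by list) and the 8 genes (diamonds). GSN lies lowest on the x axis at -1.27, CFL2 stands on the positive side of both axes, and CFL1 lies at 0 on the x axis.

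Markers of other cell types are given beside these families. The summed signal of the 6 detected fibroblast markers ran from 4745 to 11650.3 in the high and from 7376 to 21951 in the low muscling group. Its medians were 12653 in sire 16, 9928 in sire 17 and 12608.5 in sire 5. Of these 6 markers 4 were called lower in high muscling, beside 5.5% of all detected genes. For the 6 measured leukocyte markers, of which 5 were detected, the sum ran from 377 to 1086.5 in the high and from 543 to 2000.1 in the low muscling group. Its medians were 1302 in sire 16, 1016 in sire 17 and 1423 in sire 5. For the 7 measured endothelial markers, of which 6 were detected, the sum ran from 1536 to 2503 and from 1750 to 3201. Its medians were 2839 in sire 16, 2145 in sire 17 and 2681 in sire 5. The medians of all 3 sums were thus lowest in sire 17 among the low muscling families. So were those of smooth muscle and pericyte (6518, 5333 and 6090 in sires 16, 17 and 5) and adipocyte markers (826, 551.5 and 847). The erythrocyte sum, with 1 detected marker, also had its lowest median there (191.5, 156.6 and 189). For fibre markers the medians were 181397, 171540 and 171474, and sire 17 was not lowest. In the test of sire 17 against sires 16 and 5, 2 of the 6 fibroblast and 1 of the 6 endothelial markers were called, all lower. Of the 5 detected leukocyte markers 0 were called. Over all detected genes 9.7% were called lower in this contrast. The differences were negative for all 6 fibroblast markers (median -0.45) and all 5 leukocyte markers (-0.52). They were negative for 4 of the 6 endothelial markers (-0.22), and the median over all genes was -0.07. The leukocyte marker PTPRC and the endothelial marker KDR were measured but not detected, and their signals are part of the sums.

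The most abundant marker of each list is given for the same contrast of sire 17. CKM, of fibres, had -0.07 ± 0.07 (adjusted p = 0.559), while MYH7, the slow myosin heavy chain, was the 1 fibre marker called, higher in sire 17 by 0.48 ± 0.15 (0.0274). DCN, decorin, of fibroblasts, was lower in sire 17 than in sires 16 and 5 by -0.40 ± 0.13 (adjusted p = 0.0312), and PECAM1, of endothelium, by -0.57 ± 0.13 (0.00165). PECAM1 had the highest signal of the endothelial list and so weighs most in its sum. The other detected endothelial markers did not pass. Of these, TIE1 (-0.37 ± 0.34), CLDN5 (-0.36 ± 0.42) and CDH5 (-0.09 ± 0.15) had negative differences. TEK (0.01 ± 0.20) and VWF (0.82 ± 0.45) had positive ones. The mean signals of VWF (67.6) and CLDN5 (70.3) were close to the detection limit of 61.8. These markers and MYH7 were named after their values were seen. AIF1, of leukocytes, had -0.60 ± 0.28 in that contrast (0.161). ACTA2, of smooth muscle, had -0.25 ± 0.11 (0.124). FABP4, of adipocytes, had -0.57 ± 0.51 (0.512) and HBA, of erythrocytes, -0.46 ± 0.24 (0.214), and no marker of their lists was called in any contrast. For satellite cells only MYF5 was measured and it was not detected. The sum of the fibre markers ran from 162639 to 225376 in the high and from 160653 to 221821 in the low muscling group and overlapped nearly fully. The part of these cell types in the differences of the 8 genes was not tested.

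Control probe sets on the arrays also differed by family, in more than 1 direction. The bioD spike is labelled RNA added at hybridisation, so that its 3′ over 5′ ratio does not read the labelling of the sample. The log2 ratio of one of its pairs of probe sets had means of 0.825, 1.01 and 0.906 in sires 11, 2 and 7 and of 1.12, 0.935 and 1.09 in sires 16, 17 and 5, and its r with the 8 genes over the 40 animals ran from 0.323 to 0.713. The other bioD pair ran the opposite way, with r from -0.588 to -0.0664. Its means were 0.184 in sire 11 and 0.127 in sire 17 but -0.0580 in sire 16 and -0.0582 in sire 5. A bioC pair had r from -0.529 to -0.281. One bioB pair ran the same way as the first bioD pair, with r from 0.365 to 0.671. Its means were 0.00344, 0.196 and 0.173 in sires 11, 2 and 7 and 0.371, 0.101 and 0.250 in sires 16, 17 and 5. The other bioB pair had r from -0.164 to 0.291. With the ratio of the first pair as a covariate, which was chosen among the control ratios after the data were seen, TMSB10, CAP1, MYL6, PFN1 and ACTG1 were still called lower in sire 17. Of the controls of the sample RNA, the actin ratio had family means of -0.15 to 0.03. Its r with the 8 genes ran from 0.173 to 0.400. The ratio of GAPD had family means of 0.21 to 0.37, with r from -0.550 to -0.140. The ratio of EF1A set sire 17 apart, with -7.005 ± 0.42 (SD, n = 5) against -6.22 to -6.00 in the other families. Its r with the 8 genes ran from -0.0745 to 0.112. The 3′ probe set of EF1A had a median signal of 154, against 11220 for the 5′ one. The part of the other control ratios in the results was not tested.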

How the data were processed

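RNA of LD muscle was hybridised to the GeneChip Bovine Genome array, 1 array for each of 40 animals. The deposited values are intensity signals that the authors computed with MAS5 (version not given in the sources used here), on a linear scale. The mean of each array with 2% trimmed at each end was 200.1. Log2 was taken without further normalization. No counts underlie the signals, so that precision is set by how many animals there were, and between muscling groups also by the 3 sires of each.

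Of 24128 probe sets 112 were controls, and 13292 of the other 24016 had 1 gene symbol, 86 several and 10638 none in the array annotation, which names bovine genes. A gene was represented by its probe set with the highest mean, and was detected if that mean was at least 61.8, the median over probe sets other than controls. Muscling groups were compared with limma 3.58.1 (R 4.3.3) with sire as random block (correlation 0.135). Sires were compared in a limma fit with sire as a factor, by a moderated F test over 4 contrasts and by each contrast. Tests were two-sided, p-values were Benjamini-Hochberg adjusted over 6360 genes with a threshold of 0.05, and the scripts were tested on simulated data. Each progeny number occurs once, so that no animals were paired.

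The genes and lists were chosen with earlier results of these data known. Named were all 8 genes, the 2 genes of each pathway list with the smallest p of the F test, the 3 genes most like each of the 8, of which the first is always given, and the most abundant gene of each marker list. Alternatives were quantile normalization, median centring, no detection filter, low signals raised to the 20th percentile, averaged probe sets of a gene, families or animals left out, a fit with no block, a fit to the 6 sire means, Spearman correlation and family means removed. The control ratio as covariate and the correlation without the 2 most distant animals were added later. A planned search of promoters was not run. One of the pathway lists is not reported here.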

Additional observations from a re-analysis of the deposited data

Results flagged for a closer look

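Of 48 sets of animals checked, 1 for each of the 8 genes in each of 6 families, 3 held an animal far from the rest of its family. This is close to the rate of about 1 in 20 that chance gives. All 3 were of TMSB10. The gap to the nearest half-sib, as a share of the range of the family, was 0.637 in sire 11, 0.861 in sire 7 and 0.737 in sire 17. Progeny 51 of sire 11 had a signal of 8701.7 against 10037 to 10799.5 in the other progeny of that sire. Progeny 69 of sire 7 had 12071.5 against 10798 to 10975. Progeny 39 of sire 17 had 15081.2, within the range of sires 16 and 5, against 10721 to 11866 in its half-sibs. Without progeny 39 the TMSB10 difference of sire 17 from sires 16 and 5 was -0.54.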

How the results depend on the processing

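The number of genes called between high and low muscling, 495 with sire as a block, was 1586 with no block, 0 with sire means as samples and 252 with the control ratio as a covariate. Without the progeny of 1 sire it was 29 (sire 16), 23 (sire 5), 290 (sire 2), 272 (sire 7) and 1221 (sire 17). The 8 genes were chosen with the difference between high and low muscling known, so that their counts are descriptions. Of the 8 genes, 7 in the main fit, 0 were called with sire means, 2 without sire 16 and 3 without sire 5. ACTG1 was not called with averaged probe sets (-0.29 against -0.47), nor ACTB without sire 2. The F test over sires called 893 genes with the control ratio against 1402. For sire 11 against sires 2 and 7, 0 of the 8 were called with median centring and 0 with the control ratio, and 1 to 3 with single animals of sires 7 and 17 left out, CFL1 being called (adjusted p = 0.0443 and 0.0458) without progeny 58 or 98 of sire 7. For sire 2 against sire 7, 0 to 1 genes of all were called with single animals left out. The median r of the 28 pairs was 0.292 with family means removed and 0.152 within high muscling, against 0.754, and 0.704 without the 2 animals farthest from the median. The cause of these shifts was not tested. For sire 17 against sires 16 and 5, 5 or 6 of the 8 were called under every alternative run, with CAP1, MYL6, PFN1 and TMSB10 always among them. Median centring moved single arrays by -0.10 to 0.15 on the log2 scale. No paired analysis was possible because each progeny number occurs once.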
